A study of Mus musculus with 6 samples.

Results

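The transcripts of 10 circadian clock genes, out of 48699 genes in the deposited table, were followed in liver RNA from 6 mice. The 10 were taken by gene symbol: the activators Arntl, Clock and Npas2, the repressors Cry1, Per1, Per2 and Per3, the REV-ERB receptors Nr1d1 and Nr1d2, and the output factor Dbp. All 10 were found, each as a single gene, and all passed the filter on low values, set at 0.5 FPKM for the average of the 6 libraries. FPKM counts fragments per kilobase of transcript, scaled to the size of the library, so levels are on a scale per transcript length. The double knockout group was 3 mice with a hepatocyte-specific deletion of both Fxr (Nr1h4, the bile acid receptor) and Shp (Nr0b2, an orphan nuclear receptor that represses transcription). The control group was 3 Fxr fl/fl Shp fl/fl mice, which carry the floxed alleles of both genes and no deletion by their label. All 6 were C57BL/6 livers, from males per the series' design text, aged 10 to 12 weeks. The mice were without food overnight for 8 to 10 hours, under a cycle of 12 hours of light and 12 hours of dark. The column headers of the deposited values name chow for all 6. The sources used here name neither the transgene that drives the deletion nor the clock time at which each liver was taken. Each sample is taken as 1 mouse. By the label the deletion is confined to hepatocytes, and no value here measures either receptor by cell type.

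The liver clock is a feedback loop. ARNTL (also called BMAL1) pairs with CLOCK or its paralog NPAS2, binds E-boxes, and switches on the Per, Cry, Nr1d and Dbp genes. PER and CRY proteins then block that pair, REV-ERB proteins repress Arntl through sites shared with the ROR receptors, and DBP activates further genes through D-boxes. In the mouse liver Arntl, Clock and Npas2 transcripts are known to be high around the end of the night, Nr1d1, Nr1d2, Dbp and Per3 in the course of the day, Per1 and Per2 towards dusk, and Cry1 later in the night. The ratio between these sets is therefore known to follow the time of day, and feeding and fasting can also shift it in liver.

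The promoters of 4 members show the elements this loop uses and are printed for that reason, since Arntl and Per3 differed between libraries in opposite directions, Per1 split the libraries in its own way, and Cry1 had the lowest unadjusted p between the genotypes. The windows come from RefSeq on GRCm38.p6 and run 5′ to 3′ on the gene's strand, from 250 bases before a transcription start to 50 after it. They lie at chr7:113207261-113207560 on the plus strand for Arntl, at chr11:69098699-69098998 on the plus strand for Per1, at chr4:151044616-151044915 on the minus strand for Per3, and at chr10:85185005-85185304 on the minus strand for Cry1. Capitals mark motif matches on either strand.
Arntl: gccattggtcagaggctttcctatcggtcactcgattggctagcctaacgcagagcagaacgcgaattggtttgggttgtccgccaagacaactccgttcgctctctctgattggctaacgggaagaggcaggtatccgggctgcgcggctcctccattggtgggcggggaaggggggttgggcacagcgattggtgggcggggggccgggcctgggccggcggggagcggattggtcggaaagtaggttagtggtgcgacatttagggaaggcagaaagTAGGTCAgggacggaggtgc
Per1: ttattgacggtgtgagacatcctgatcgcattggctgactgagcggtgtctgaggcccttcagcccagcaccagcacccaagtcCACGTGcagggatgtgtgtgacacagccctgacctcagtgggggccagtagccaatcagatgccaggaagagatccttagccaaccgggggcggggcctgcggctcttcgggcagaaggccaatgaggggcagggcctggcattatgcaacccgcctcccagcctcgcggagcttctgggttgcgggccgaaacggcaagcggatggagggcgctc
Per3: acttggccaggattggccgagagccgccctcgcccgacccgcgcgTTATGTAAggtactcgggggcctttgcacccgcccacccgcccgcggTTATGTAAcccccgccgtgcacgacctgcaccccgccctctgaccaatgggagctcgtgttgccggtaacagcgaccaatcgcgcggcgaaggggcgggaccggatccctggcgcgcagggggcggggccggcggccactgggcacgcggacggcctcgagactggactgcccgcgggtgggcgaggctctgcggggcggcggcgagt
Cry1: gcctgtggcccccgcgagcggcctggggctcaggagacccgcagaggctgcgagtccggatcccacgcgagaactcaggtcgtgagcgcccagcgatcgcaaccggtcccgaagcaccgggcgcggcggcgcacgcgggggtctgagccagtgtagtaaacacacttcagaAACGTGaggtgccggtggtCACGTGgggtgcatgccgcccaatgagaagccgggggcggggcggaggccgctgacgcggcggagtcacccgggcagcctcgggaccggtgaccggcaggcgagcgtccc
The motifs were searched on both strands, and none of the matches shown overlaps another. The E-box CACGTG was found 166 bases before the start in Per1 and 60 bases before it in Cry1. A near E-box, CACGTT, was found as its reverse complement 79 bases before the start of Cry1. The Arntl window held the ROR and REV-ERB core TAGGTCA 30 bases after its start. Per3 held the D-box TTATGTAA at 205 and again at 158 bases before its start. Of all 32851 RefSeq windows of this length, 7.15% held CACGTG, 4.68% CACGTT, 2.61% TAGGTCA and 0.938% TTATGTAA. Windows were present for 9 of the 10 members, 13 windows in all, and 5 of these 9 members held a motif in 1 of their windows. For Arntl and Per1 a second window, chr7:113207215-113207514 and chr11:69099902-69100201, both on the plus strand, held none of the motifs. The fifth member with a match was Nr1d1, with CACGTT in reverse complement 28 bases before its start. The windows of Clock, Npas2, Dbp and Nr1d2 held none of the motifs, and Per2 had no window. A match is a description of letters and not evidence of binding.

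The labels were checked on the deleted genes. Nr0b2 measured 0.216, 0.0734 and 0.293 FPKM in double knockout livers and 14.7, 17.6 and 18.7 FPKM in controls. Nr1h4 measured 21.1, 15.5 and 22.0 FPKM in double knockout livers and 59.8, 71.8 and 68.0 FPKM in controls, and the deposited value is for the whole gene. Steps in the low values corresponded to between 13188400 and 14135300 fragments per library. Only low values inside a fixed narrow range were read, which bounds this estimate, so it cannot show whether depth was similar. All 7 hepatocyte markers were present in each library. Nothing in the labels says that the 6 samples were processed in separate batches. Control replicate 3 stood apart from the other controls across all tested genes, with correlations of 0.952 and 0.955 to them against 0.983 between those 2 (log2 values, across genes, which are not independent). It correlated at 0.966 with double knockout replicate 3, which itself correlated at 0.976 and 0.970 with double knockout replicates 1 and 2. The clock comparisons are given below with and without both livers numbered 3.

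Most of the clock genes differed more between replicate numbers than between genotypes, with Cry1 as the exception. Dbp, the D-box activator, measured 16.8, 8.00 and 71.9 FPKM in double knockout replicates 1, 2 and 3, and 2.87, 7.17 and 63.0 FPKM in control replicates 1, 2 and 3. Arntl, the core activator, ran the other way, with 2.96, 5.84 and 0.952 FPKM in double knockout livers and 5.55, 4.89 and 0.644 FPKM in control livers. Both livers numbered 3 thus had the highest Dbp and the lowest Arntl, whatever their genotype. The ratio of Dbp to Arntl was 5.68, 1.37 and 75.6 in double knockout livers and 0.517, 1.47 and 97.9 in controls. In Arntl, the mean of replicates 1 and 2 was 4.62 times the value of replicate 3 in double knockout livers and 8.11 times in controls. In Dbp, replicate 3 was 5.81 times the mean of replicates 1 and 2 in double knockout livers and 12.6 times in controls.

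**Figure D1:**
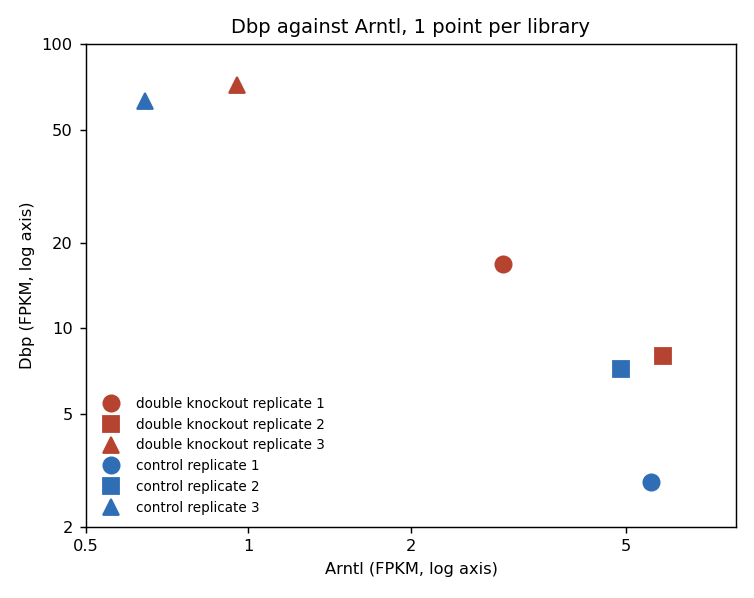
Dbp (vertical axis, FPKM, log scale) against Arntl (horizontal axis, FPKM, log scale), 1 point per library, with red for double knockout, blue for control and the symbol for the replicate number. The livers numbered 3 lie at the upper left, at 71.9 FPKM of Dbp in the double knockout and 63.0 FPKM in the control, while double knockout replicate 1 lies between them and the other 3 livers.

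Each liver had its own clock profile. The figure for a library that follows is the mean log2(FPKM + 1) of 4 day members (Dbp, Nr1d1, Nr1d2 and Per3) minus that of the 3 activators. Double knockout replicate 1 was intermediate, at 1.498, with Arntl at 2.96 FPKM, lower than in the other livers not numbered 3, and Dbp at 16.8 FPKM, higher than in those. Double knockout replicate 2 was at 0.70, with the highest Arntl, Clock and Npas2 of the 6 livers and the lowest Per1 and Per2. Double knockout replicate 3 was at 3.04, with the highest Dbp, Nr1d1, Per1, Per2 and Per3 and the lowest Cry1. Control replicate 1 was at 0.22, the lowest of all, with the lowest Dbp, Nr1d1, Nr1d2 and Per3. Control replicate 2 was at 1.03, with the highest Cry1. Control replicate 3 was at 3.43, with the highest Nr1d2 and the lowest Arntl, Clock and Npas2. Nr1d1 was the most abundant of the 10 genes in the 4 livers numbered 1 and 2, and Dbp in both livers numbered 3.

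**Figure D2:**
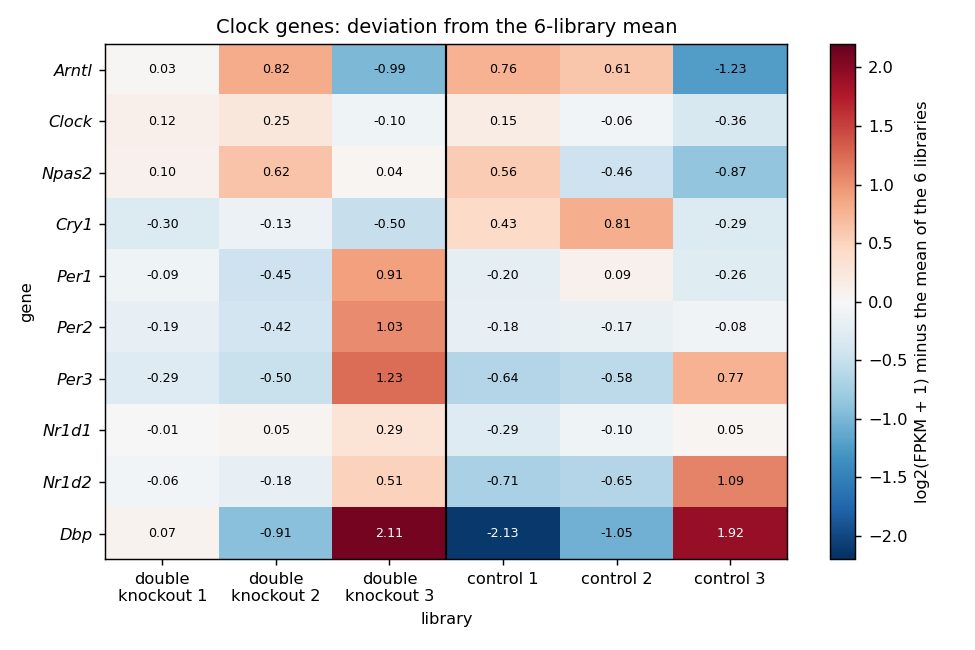
Deviation of each clock gene (rows) in each library (columns) from its mean over the 6 libraries, as log2(FPKM + 1), with red above and blue below that mean. Dbp stood at 2.11 and Arntl at -0.99 in double knockout replicate 3, and at 1.92 and -1.23 in control replicate 3.

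In 6 of the 10 members both livers numbered 3 lay outside the range of the other 4 livers, 4 above it (Dbp, Nr1d2, Per3 and Per2) and 2 below it (Arntl and Clock). The same held for 24.5% of the 11810 tested genes, with 13.3% above and 11.2% below. Replicate number accounted for a median of 61.1% of the sum of squares of a member, against 36.5% over all tested genes, and genotype for 8.42% of a member, against 23.1%. These values are descriptions, since the members were proposed with the clock pattern of both livers numbered 3 already known. For single members, the share that went with replicate number was 94.7% in Per3, 92.3% in Arntl, 83.2% in Dbp and 79.8% in Nr1d2. It was lowest in Per1, at 27.8%, and Npas2, at 34.2%. Cry1 alone had a larger share by genotype, at 46.0%, than by replicate number, at 43.1%. Replicate number has 3 levels and genotype has 2, so the shares are best read against those of all tested genes. A shared replicate number is only a label here, and whether it pairs the mice is not known.

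The activators were measured at low to moderate levels. Clock, the partner of ARNTL, varied least among them, with 6.85, 7.60 and 5.75 FPKM in double knockout livers and 7.06, 5.94 and 4.64 FPKM in controls. Its values in both livers numbered 3 were the lowest, and the genotypes overlapped. Npas2, the paralog that can take the place of CLOCK, measured 0.989, 1.86 and 0.910 FPKM in double knockout livers and 1.73, 0.351 and 0.0165 FPKM in controls. The range of Npas2 in the controls was wider than in the double knockouts and held all the double knockout values but the highest. The lowest value, in control replicate 3, corresponds to about 1 fragment (0.961 by the longest annotated transcript and the approximate depth). No fold is given for it. Arntl in the same liver rested on about 35.3 fragments by the same approximation.

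The repressors did not share a single pattern. Per3, a PER protein with a minor part in the core loop, measured 0.658, 0.433 and 3.72 FPKM in double knockout livers and 0.300, 0.354 and 2.45 FPKM in controls. Its values in both livers numbered 3 were several times those of the others, 6.82 times the mean of replicates 1 and 2 in double knockout livers and 7.48 times in controls. Per2, a core repressor, measured 1.00, 0.701 and 3.65 FPKM in double knockout livers and 1.01, 1.03 and 1.16 FPKM in controls. Per1, a core repressor that is also known to respond within minutes to stimuli, measured 6.14, 4.596 and 13.3 FPKM in double knockout livers and 5.66, 7.10 and 5.38 FPKM in controls. The highest Per1 and Per2 were thus in double knockout replicate 3. Control replicate 3 lay within the range of the other livers for Per1. For Per2 it lay just above the livers not numbered 3. Between the livers numbered 3, the double knockout had 2.48 times the Per1 and 3.16 times the Per2 of the control, and 1.141 times its Dbp; with 1 liver a side these ratios have no replicate check. Cry1, a core repressor whose transcript is known to peak late, measured 1.46, 1.77 and 1.139 FPKM in double knockout livers and 3.09, 4.30 and 1.48 FPKM in controls. Its 3 double knockout values lay below control replicates 1 and 2, and control replicate 3 fell among them.

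**Figure D3:**
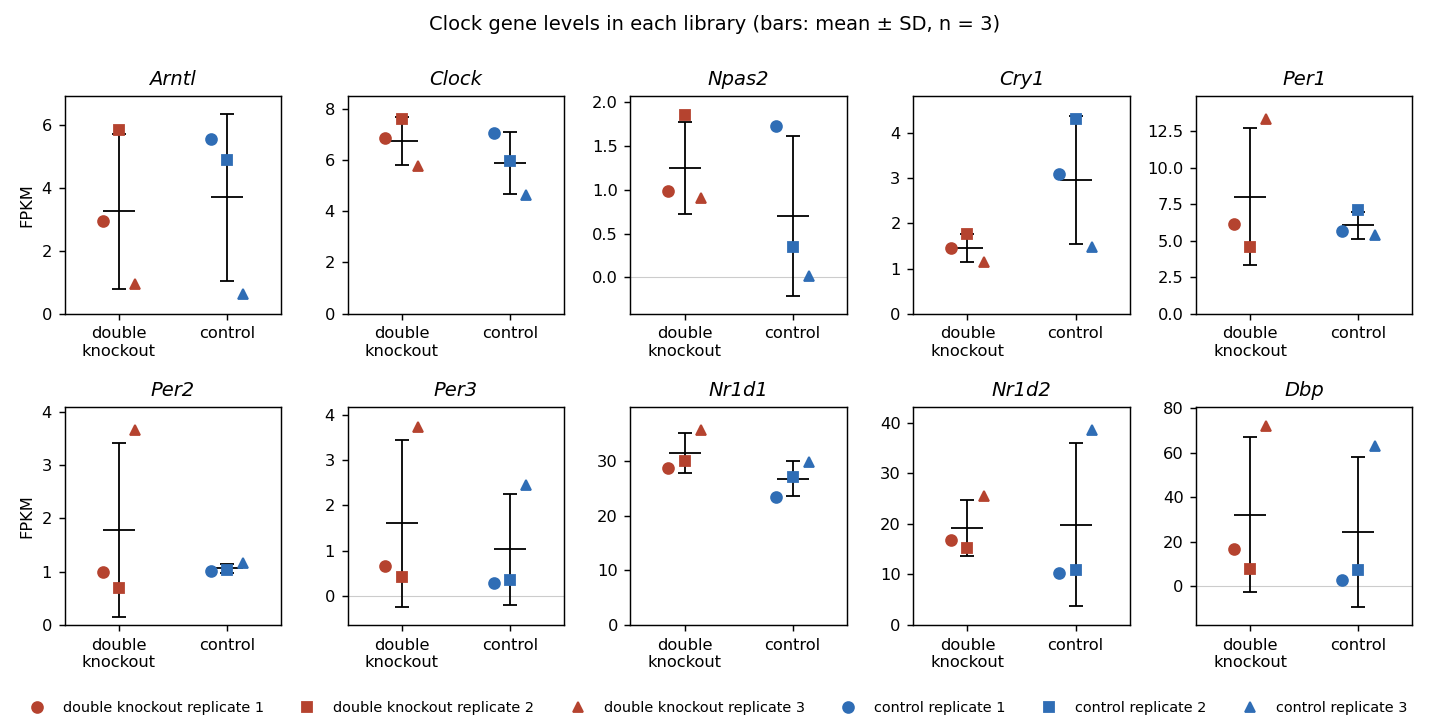
FPKM of each clock gene (vertical axes, each with its own scale) in double knockout (red, left) and control livers (blue, right), with a symbol per replicate number and black bars for the mean ± SD (n = 3). Triangles, the livers numbered 3, are highest in both groups for Dbp, Per3, Nr1d2, Nr1d1 and Per2 and lowest in both for Arntl, Clock, Npas2 and Cry1.

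The REV-ERB receptors, which repress Arntl, were the most abundant members with Dbp. Nr1d1 measured 28.7, 30.1 and 35.6 FPKM in double knockout livers and 23.5, 27.0 and 29.9 FPKM in controls, and its highest library was 1.52 times its lowest. Nr1d2 measured 16.7, 15.3 and 25.4 FPKM in double knockout livers and 10.3, 10.8 and 38.5 FPKM in controls. Nr1d2 in control replicate 3 stood 3.65 times above the mean of the other controls, and in double knockout replicate 3 stood 1.59 times above the mean of the other double knockouts. In Nr1d1 the corresponding ratios were 1.18 and 1.21, so Dbp, Per3 and Nr1d2 differed far more between libraries than Nr1d1 did.

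Nr1d1, Dbp and Per3 share their position with another expressed gene. The kit was stranded, but the sources used here do not say whether the counting used strand. Nr1d1 (ENSMUSG00000020889.11, chromosome 11, 98767932 to 98775333, GRCm38) overlaps the end of Thra, a thyroid hormone receptor gene on the opposite strand, over 1075 bases. Thra measured 5.01, 7.18 and 7.29 FPKM in double knockout livers and 5.19, 3.50 and 3.36 FPKM in controls. Dbp (ENSMUSG00000059824.12, chromosome 7, 45705088 to 45710203) overlaps Sphk2, a sphingosine kinase gene on the opposite strand, over 737 bases, and Sphk2 measured 14.4, 18.1 and 12.2 FPKM in double knockout livers and 19.8, 16.6 and 11.8 FPKM in controls. Sphk2 was lowest in both livers numbered 3, where Dbp was highest. Per3 (ENSMUSG00000028957.12, chromosome 4, 151003652 to 151044665) lies within the span of Camta1 on the same strand, and Camta1 measured 3.09, 2.51 and 2.71 FPKM in double knockout livers and 3.9996, 4.49 and 4.88 FPKM in controls.

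Between the genotypes, no clock member was called higher or lower. In limma's moderated test on log2(FPKM + 1), with Benjamini-Hochberg adjustment over all tested genes, 0 of 10 members passed the threshold of 0.05, against 0.313% of the 11810 tested genes (0.169% higher and 0.144% lower in the double knockout). At an unadjusted p under 0.05 the count was 0 of 10, against 14.9% of tested genes. In 0 of 10 members were the double knockout and control values apart without overlap, against 22.9% of tested genes. The log2 difference, double knockout minus control, was positive in 8 members and negative in 2, with a median of 0.24 over the members and -0.01 over all tested genes.

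Cry1 had the largest negative difference of the 10 and the lowest p. It averaged 1.46 ± 0.314 FPKM in double knockout livers and 2.96 ± 1.42 FPKM in control livers (SD, n = 3 each), a log2 difference of -0.63 (SE 0.28, limma adjusted p = 0.352). Cry1 was called lower in the authors' deposited table, with a q-value of 0.0281. It was the only member called in the authors' deposited table, where 4.58% of the 11844 tested genes were called and 1.73% called lower. Without control replicate 3 the difference was -0.93 (limma adjusted p = 0.0638), and without control replicate 2 it was -0.38 (limma adjusted p = 0.659). With limma's weights for each library, Cry1 passed the threshold (-0.92, limma adjusted p = 0.0463), where the same weights called 563 genes in all, 4.77% of those tested.

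Dbp had the largest positive difference and the widest error. It averaged 32.2 ± 34.7 FPKM in double knockout livers and 24.4 ± 33.6 FPKM in control livers (SD, n = 3 each), a log2 difference of 0.84 (SE 1.11, limma adjusted p = 0.746). Within each group its SD exceeded its mean. Arntl averaged 3.25 ± 2.46 FPKM in double knockout livers and 3.70 ± 2.66 FPKM in control livers (SD, n = 3 each), a difference smaller than either spread (-0.09, SE 0.62, limma adjusted p = 0.960). Nr1d1 had the tightest groups, at 31.5 ± 3.66 FPKM in double knockout livers and 26.8 ± 3.21 FPKM in control livers (SD, n = 3 each). Its groups overlapped (0.23, SE 0.16, limma adjusted p = 0.523). Npas2 differed by 0.51 (SE 0.37, limma adjusted p = 0.539). This value was 0.92 without control replicate 1 and 0.20 without control replicate 3, and 1.08 and 1.49 with pseudocounts of 0.25 and 0.1 FPKM. The other 5 members, Clock, Per1, Per2, Per3 and Nr1d2, differed by 0.18 to 0.30, with limma adjusted p-values between 0.679 and 0.886.

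Leaving out both livers numbered 3 left 2 livers a group and called 0 members, against 1.36% of the 11802 genes then tested. The difference was then -0.84 in Cry1 (limma adjusted p = 0.106), 0.56 in Nr1d2 (limma adjusted p = 0.113) and 1.17 in Dbp (limma adjusted p = 0.214). It turned to -0.22 in Per1 and to -0.13 in Per2. Leaving out 1 liver at a time turned the direction of Arntl, Per1, Per2, Per3, Dbp and Nr1d2 in at least 1 case each, and did not turn Clock, Npas2, Cry1 or Nr1d1. Without double knockout replicate 3, for example, Dbp differed by -0.00027 and Arntl by 0.38, and without control replicate 3 they differed by 2.01 and -0.73.

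**Figure D4:**
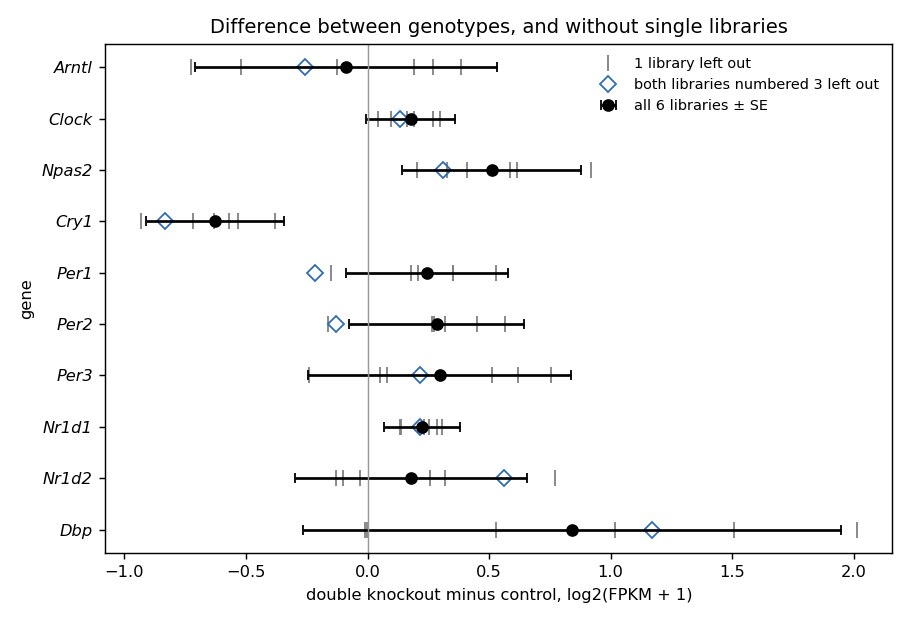
Difference between double knockout and control livers for each clock gene on the log2(FPKM + 1) scale (horizontal axis), with black points and bars for the estimate ± SE over all 6 libraries, grey ticks with 1 library left out and blue diamonds with both libraries numbered 3 left out. Cry1 stays below 0 throughout, between -0.93 and -0.38 with 1 library left out, while Dbp runs between -0.01 and 2.01.

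Other regulators of the clock were read from a list of 15 genes, chosen with earlier results of these data known. In limma, 0 of 15 passed the threshold, against 0.313% of tested genes, and 3 of 15 had an unadjusted p under 0.05, against 14.9% of tested genes. The difference was positive in 14 of the 15, against 5807 of the 11810 tested genes, with a median of 0.30 against -0.01. The genotypes did not overlap in 4 of the 15, which is 26.7% of the list against 22.9% of tested genes. In 6 of the 15 both livers numbered 3 were above the other 4, against 13.3% of tested genes, and in 0 below, against 11.2%. Among the most abundant, Bhlhe40, a repressor that competes for E-boxes, measured 35.1, 23.7 and 109 FPKM in double knockout livers and 16.0, 20.6 and 48.3 FPKM in controls. Tef, a D-box activator of the same family as DBP, measured 17.6, 14.4 and 38.5 FPKM in double knockout livers and 16.9, 17.5 and 32.5 FPKM in controls. Csnk1d, a kinase of PER proteins, showed no such pattern, with 19.4, 17.1 and 18.7 FPKM in double knockout livers and 17.9, 16.2 and 14.3 FPKM in controls. Ciart, a repressor of the CLOCK and ARNTL pair, had the widest range, with 2.18, 0.931 and 22.9 FPKM in double knockout livers and 1.00, 2.58 and 6.83 FPKM in controls. Tef, Bhlhe40 and Ciart were thus highest in both livers numbered 3, and each was higher in the double knockout one of these.

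Rora, Nfil3 and Hlf were among the regulators whose genotypes did not overlap, and were chosen after their values were seen. Rora, a nuclear receptor that activates Arntl, measured 7.34, 7.79 and 8.30 FPKM in double knockout livers and 5.57, 5.93 and 4.26 FPKM in controls. Nfil3, a repressor at D-boxes, measured 7.45, 10.8 and 9.45 FPKM in double knockout livers and 15.04, 14.6 and 15.4 FPKM in controls (log2 difference -0.66, limma adjusted p = 0.169). Hlf, a further D-box activator, measured 15.9, 13.6 and 18.7 FPKM in double knockout livers and 12.0, 12.2 and 12.6 FPKM in controls. Unlike the members with a strong library pattern, Nfil3 took similar values in all 3 controls. In the authors' deposited table, Nfil3 was called lower (q-value 0.0484) and Bhlhe40 higher (q-value 0.0194). With limma's library weights, Nfil3 passed the threshold (limma adjusted p = 0.0440).

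Known outputs of the liver clock showed the library pattern in most cases. They were listed with earlier results of these data known, so the counts that follow are descriptions. Of a list of 17, both livers numbered 3 were above the other 4 in 11 genes and below them in 3, against 13.3% and 11.2% of tested genes. Replicate number accounted for a median of 68.4% of the sum of squares, against 36.5% over all tested genes. In limma, 0 of 17 passed the threshold and 0 had an unadjusted p under 0.05, against 0.313% and 14.9% of tested genes, with a median difference of -0.13. Elovl3, a fatty acid elongase, measured 243, 276 and 31.6 FPKM in double knockout livers and 782, 605 and 141 FPKM in controls. It was low in both livers numbered 3, and the highest double knockout value lay below the control values of replicates 1 and 2. Insig2, an anchor of the sterol sensor, measured 337, 360 and 225 FPKM in double knockout livers and 384, 270 and 122 FPKM in controls. Alas1, the first enzyme of heme synthesis, measured 203, 75.5 and 411 FPKM in double knockout livers and 220, 134 and 203 FPKM in controls. Rgs16, a regulator of G protein signalling, measured 35.4, 6.96 and 73.4 FPKM in double knockout livers and 3.45, 26.8 and 39.1 FPKM in controls. Lpin1, a phosphatidate phosphatase and coactivator, was in replicate 3 the highest of the double knockouts and the lowest of the controls. It measured 46.2, 8.56 and 68.2 FPKM in double knockout livers and 71.0, 80.5 and 6.47 FPKM in controls.

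Cyp7a1, Elovl3 and Usp2 passed the threshold once both livers numbered 3 were left out, with 2 livers a group, a setting that called 161 of 11802 genes (1.36%). Cyp7a1 and Usp2 were chosen after their values were seen. Cyp7a1, the rate-limiting enzyme of bile acid synthesis, was then higher (log2 difference 1.74, limma adjusted p = 0.0134). Over all 6 livers it measured 102, 118 and 126 FPKM in double knockout livers and 28.6, 36.2 and 181 FPKM in controls, so control replicate 3 alone joined the groups. Elovl3 was lower (-1.40, limma adjusted p = 0.0425), and so was Usp2, a deubiquitinase under E-box control (-1.36, limma adjusted p = 0.0451). Usp2 measured 1.46, 1.18 and 10.2 FPKM in double knockout livers and 4.10, 5.92 and 8.74 FPKM in controls. In the livers numbered 3 it was thus slightly higher in the double knockout. In the authors' deposited table, Elovl3 was called lower (q-value 0.00121).

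**Figure D5:**
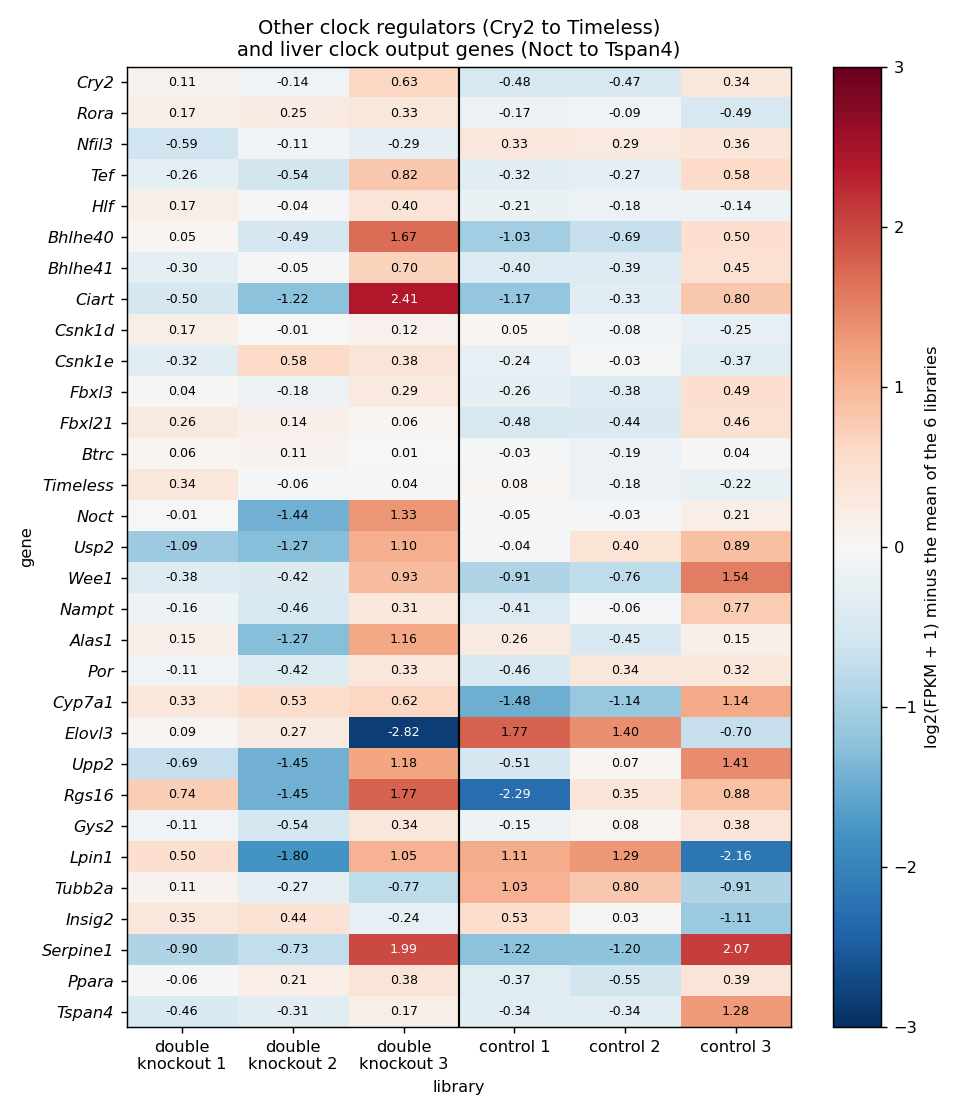
Deviation of 14 other clock regulators and 17 liver clock output genes (rows) in each library (columns) from the mean of the 6 libraries, as log2(FPKM + 1), with red above and blue below that mean. Columns numbered 3 are mostly red in both groups, and Elovl3 is the lowest cell, at -2.82 in double knockout replicate 3.

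Other signals also moved with the livers numbered 3, in lists chosen with earlier results of these data known. Of 15 immediate-early genes, which respond within minutes to stress or handling, both livers numbered 3 were above the other 4 in 12, against 13.3% of tested genes. The size differed: the list summed to 171, 93.6 and 286 FPKM in double knockout livers and 97.8, 132 and 931 FPKM in controls. Fos measured 0.723, 0.762 and 2.60 FPKM in double knockout livers and 0.220, 0.103 and 53.7 FPKM in controls. The authors' deposited table called 10 of the 15 lower in the double knockout, against 1.73% of its 11844 tested genes. Control replicate 3 was the highest library in each of these 10. Per1 and Per2 measured 13.3 and 3.65 FPKM in double knockout replicate 3, and 5.38 and 1.16 FPKM in control replicate 3. Neutrophil markers summed to 1.44, 10.6 and 17.7 FPKM in double knockout livers and 1.98, 0.893 and 50.7 FPKM in controls, and 3 of their 4 genes were at 0 in at least 1 library, with Ly6g at 0 in 5. The part of these signals in the clock pattern was not tested.

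Other lists tied to daily signals were read the same way, and differences between lists were not tested. Over all tested genes, both livers numbered 3 were above the other 4 in 13.3% and below in 11.2%. Of 8 glucocorticoid target genes, these livers were above in 1 and below in 0. Sgk1, a kinase, was that gene, with 8.90, 12.5 and 27.2 FPKM in double knockout livers and 5.40, 7.26 and 17.5 FPKM in controls. Tat, tyrosine aminotransferase, measured 1190, 622 and 1310 FPKM in double knockout livers and 790, 1112 and 707 FPKM in controls. Of 10 fasting genes the counts were 2 above and 0 below. Pck1, the rate-limiting enzyme of glucose production, was among them, at 1439, 1064 and 1931 FPKM in double knockout livers and 1205, 1629 and 1639 FPKM in controls. Of 8 temperature and heat shock genes they were 2 above and 2 below, which is 4 of 8 against 24.5% of tested genes. The median share by replicate number was 47.2% in this list. Among the genes above was Rbm3, a cold-induced RNA-binding protein. It measured 27.1, 25.1 and 30.9 FPKM in double knockout livers and 21.4, 19.4 and 45.7 FPKM in controls. Hsph1 was among the genes below, with 17.6, 9.85 and 5.21 FPKM in double knockout livers and 15.4, 23.4 and 6.76 FPKM in controls. None of these 3 lists or of the immediate-early genes had a gene past limma's threshold, against 0.313% of tested genes. An unadjusted p under 0.05 was found in 2 of 8 temperature and 2 of 10 fasting genes, against 14.9% of tested genes. In the other 2 lists no gene had one. The authors' deposited table called 1 temperature gene, 2 fasting genes and no glucocorticoid target, against 4.58% of its tested genes.

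Markers of other liver cells were read from marker lists, and their part in the clock pattern was not tested. Kupffer cell markers summed to 116, 259 and 102 FPKM in double knockout livers and 80.7, 66.0 and 164 FPKM in controls. Sinusoidal endothelial markers summed to 27.7, 58.8 and 33.2 FPKM in double knockout livers and 39.4, 39.5 and 50.9 FPKM in controls. Stellate cell markers ranged from 60.5 to 140 FPKM in double knockout livers and from 63.1 to 114 FPKM in controls, and cholangiocyte markers from 59.1 to 63.7 FPKM in double knockout livers and from 33.7 to 44.2 FPKM in controls. Spp1, which encodes osteopontin, made up most of the cholangiocyte sum. It measured 55.2 to 60.9 FPKM in double knockout livers and 31.1 to 42.6 FPKM in controls. Epcam also did not overlap, with 1.29, 0.935 and 0.862 FPKM in double knockout livers and 0.760, 0.497 and 0.477 FPKM in controls. Krt7, Krt19 and Sox9 overlapped between the genotypes. Over all tested genes, 22.9% did not overlap. Lymphocyte markers were at or below 3.15 FPKM in every library. Erythroid markers were highest in double knockout replicate 2, at 1057 FPKM, and control replicate 3, at 735 FPKM. In bulk liver, fewer cells of a type and less RNA per cell cannot be told apart.

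The genes most like Arntl and Dbp were found by Pearson correlation of log2(FPKM + 1) over the 6 libraries among the 6370 genes averaging 5 FPKM or more. With both livers numbered 3 at one end, such a value mostly tells those livers from the rest. The 5 closest to Arntl were Prmt5 (0.991), Smg5 (0.980), Gsr (0.975), Mtmr4 (0.971) and Pde9a (0.969). Prmt5, an arginine methyltransferase, measured 4.998, 6.60 and 4.04 FPKM in double knockout livers and 6.39, 5.99 and 3.89 FPKM in controls. The 5 closest to Dbp were Uvrag (0.992), Pcca (0.991), Zbtb8os (0.988), Fxr1 (0.987) and Bag4 (0.986). Fxr1 is an RNA-binding protein of the fragile X family and is not the bile acid receptor FXR. Pcca, a subunit of propionyl-CoA carboxylase, measured 105, 99.1 and 150 FPKM in double knockout livers and 83.7, 97.1 and 146 FPKM in controls. A correlation of at least 0.95 was reached by 12 genes for Arntl and by 49 for Dbp.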

How the data were processed

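Liver mRNA libraries of 3 double knockout and 3 control mice were compared. Cuffdiff 2.2.1, STAR 2.4.2a, Trimmomatic, Picard 1.119 and bcl2fastq 2.17.1.14 are listed, with no role or order, in the submitters' processing notes, as is GRCm38 (mm10). Per the labels' protocols, libraries were made with a stranded mRNA kit. The authors deposited FPKM per library for 48699 genes, and a comparison table giving each gene a p-value, a q-value and 1 FPKM per group, in Cuffdiff's layout per the file headers. FPKM values are not counts. Approximate depth was read from the steps of low values, within a fixed narrow range, in single-transcript genes over 1500 bases.

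Groups and replicate numbers came from sample titles. The 11810 genes averaging 0.5 FPKM or more were tested as log2(FPKM + 1) with limma 3.58.1 (R 4.3.3), with a mean-variance trend and Benjamini-Hochberg adjustment at 0.05. The log2 scale with a pseudocount understates changes of low genes. An exact permutation test of 3 against 3 livers cannot go below p = 0.1, so none was used. Nothing says whether the samples of a group differ in more than the animal, and p-values measure the spread between them. The script was tested on simulated data: of 200 genes changed by 1 on the log2 scale it called 76, and of 200 changed by 3 it called 195, among 11810 genes.

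The members, the other gene lists and the tests were chosen with earlier results of these data known. The rule for named genes took, per list, genes past the threshold or else the 3 with the highest mean and 2 further with the widest range, and the 5 genes most like Arntl and Dbp. For other clock regulators and outputs these are given, and of the other lists only 1 or 2 of the 5, picked after their values were seen; predicted genes and pseudogenes were left out. Of the other clock regulators, 1 is counted but not reported by name here. For symbols listed more than once, the most abundant entry was used, and 27 symbols turned into dates by a spreadsheet were restored from the identifier. Overlaps and lengths came from GENCODE M21 on GRCm38. Alternatives were other pseudocounts, filters and scalings, no trend, library weights, a replicate block, and libraries left out.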

Additional observations from a re-analysis of the deposited data

How the results depend on the processing

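The count of 0 clock members called was unchanged in 15 of 16 alternatives and was 1 (Cry1) with limma's library weights. Over all genes, 37 were called; the count was 2 with no filter on low values, 563 with library weights, 161 without both livers numbered 3, and 2 to 241 with 1 liver left out, the highest without control replicate 3. Other clock regulators went to 2 calls with library weights. Liver clock outputs had 1 call with library weights, 1 with the replicate block (Elovl3), 3 without both livers numbered 3, and 0 to 1 with 1 liver left out. With 1 liver left out, the log2 difference ran from -0.73 to 0.38 in Arntl, -0.15 to 0.53 in Per1, -0.16 to 0.57 in Per2, -0.24 to 0.76 in Per3, -0.012 to 2.01 in Dbp and -0.13 to 0.77 in Nr1d2. Without both livers numbered 3 it reversed to -0.22 in Per1 and -0.13 in Per2. The cause was not tested, beyond the smaller number of livers. With 1 liver left out, Clock ran from 0.04 to 0.30, and Nr1d1 from 0.14 to 0.30. With a pseudocount of 0.1 FPKM, Per3 differed by 0.58. A filter of 2 FPKM removed Npas2, Per2 and Per3.

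Same-numbered livers deviated together at correlations of 0.220, -0.075 and 0.301 over all tested genes (replicates 1, 2 and 3). Livers of unlike number reached up to 0.254, for double knockout replicate 1 and control replicate 2. Such correlations cannot settle whether the numbers pair the samples. The replicate block called 50 genes and 0 clock members, with Cry1 at a limma adjusted p of 0.229 and Dbp at 0.346. Members below 1 FPKM rest on few fragments, from about 1 in Npas2 upwards, which limits what their levels can show.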
